A study of Saccharomyces cerevisiae with 24 samples.

Results

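The 79 genes described here encode the proteins of the large subunit of the cytosolic ribosome of budding yeast. They were chosen by name: every gene in the deposited count table whose standard symbol is RPL followed by a number, or RPP0, RPP1A, RPP1B, RPP2A or RPP2B, 79 of 5211 genes. The reference gene table lists 81 such genes, and the remaining pair, RPL41A and RPL41B, was not analysed here. Of the 79 genes, 68 form 34 pairs of A and B copies by name, and 11 stand alone. Most of the pairs encode the same or nearly the same protein. All 79 had counts in each of the 24 libraries and passed the filter on low counts.

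The series compared a mutant lacking ZUO1, called zuo1Δ, with wild type BY4741, a laboratory strain of Saccharomyces cerevisiae of mating type a. Zuo1 is a J-domain chaperone that binds the ribosome beside the exit of the nascent chain tunnel, where it works with Ssz1 and the Hsp70 Ssb. The 6 kinds of cells sequenced were zuo1Δ after H2O2, zuo1Δ after heat, zuo1Δ unstressed, wild type after H2O2, wild type after heat and wild type unstressed. H2O2 was given at 0.25 mM for 30 min at 30 °C, and heat was 37 °C for 45 min after growth at 30 °C in synthetic complete medium with glucose. Poly(A) mRNA and ribosome footprints, the stretches of mRNA that a ribosome shields from nuclease, were each sequenced from 2 replicates of every kind, which gives 12 libraries per assay. The sources used here do not say whether the mutant was more than 1 clone.

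The large subunit joins amino acids at its catalytic centre and lets the growing chain leave through a tunnel. Its proteins stabilise the ribosomal RNA, form the stalk that recruits the GTPases of translation, and form the rim of the tunnel exit where chaperones such as Zuo1 and Ssb dock. In yeast their genes are among the most heavily transcribed and translated, are switched together by the activators Rap1, Fhl1 and Ifh1, and are lowered together in many stresses. Most are duplicated, a remnant of an old duplication of the whole genome.

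The footprint libraries held 1686930 to 15788345 gene counts and the mRNA libraries 7810893 to 122213415. ZUO1 was listed at 0 in all 12 zuo1Δ libraries, and in wild type it had 1987 to 10120 footprint counts and 2443 to 32580 mRNA counts. In 3 libraries the markers went against the label. The median log2 level of 13 oxidative stress genes, relative to the unstressed libraries, was -0.24 in the footprint library labelled zuo1Δ H2O2 replicate 1, against 2.42 in its replicate 2 and 2.37 and 2.61 in wild type after H2O2. It was -0.06 in the mRNA library labelled zuo1Δ H2O2 replicate 2 and 2.00 in the mRNA library labelled zuo1Δ heat replicate 1. In addition, 16 heat shock genes had a median of 0.02 and -0.65 in the footprint libraries labelled zuo1Δ heat, against 0.18 and -0.52 in unstressed zuo1Δ, while in wild type they had 1.16 and 0.84 after heat, against 0.45 and -0.03 unstressed. Main results that rest on the footprint library labelled zuo1Δ H2O2 replicate 1 are also given without it. Both footprint libraries labelled zuo1Δ heat were kept, since without them those comparisons have no library. How reads that match both copies of a pair were counted is nowhere stated, which makes the level of each copy uncertain. The sum of a pair is uncertain too, because it is too low if such reads were left out. In these bulk samples a smaller share of a gene's RNA and a larger share of other genes' RNA cannot be told apart.

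The 79 genes took between 3.668% and 8.621% of all gene counts of a library. In footprints they took 7.825% and 7.823% in unstressed zuo1Δ, against 8.466% and 8.621% in unstressed wild type. In the libraries labelled H2O2 they took 8.319% and 6.844% in zuo1Δ, against 5.817% and 5.829% in wild type. In those labelled heat they took 6.045% and 6.747% in zuo1Δ, against 5.152% and 5.496% in wild type. Thus zuo1Δ lay below wild type without stress and above it under both stress labels, with no overlap of the replicates in any condition. These are shares of raw counts, and all genes shifted too. With scaling by library size alone, the median log2 fold change of zuo1Δ against wild type under heat was 0.17 for the 79 genes and 0.15 for all genes. Under H2O2 it was 0.36 and 0.15, and without stress -0.14 and 0.27. The 8.319% is that of the library whose oxidative markers went against its label.

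**Figure D1:**
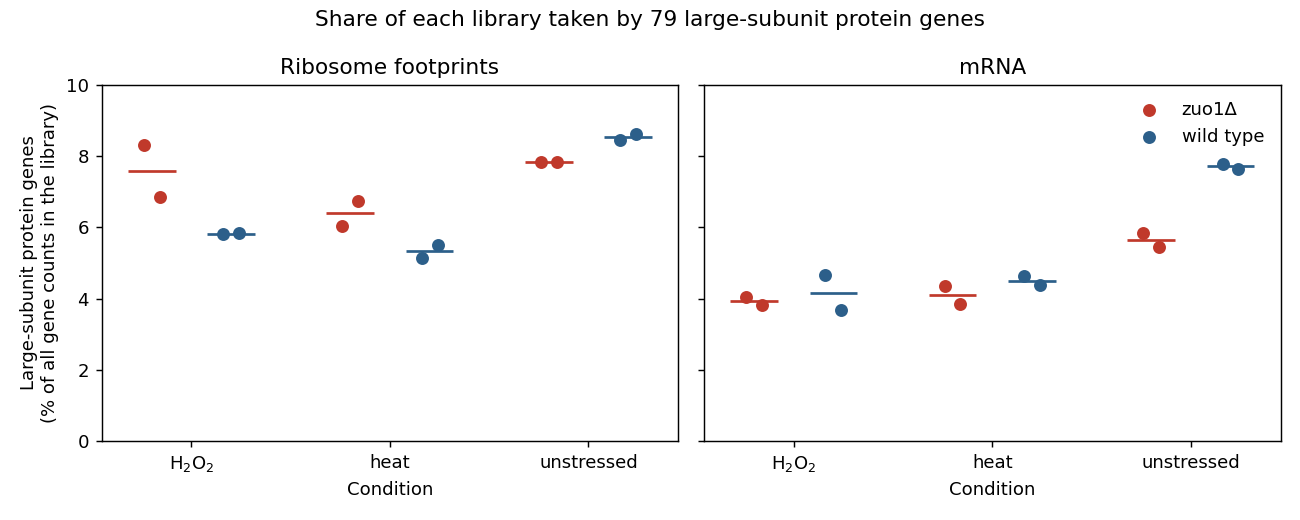
Share of all gene counts taken by the 79 large-subunit protein genes in each library (vertical axis, percent) by condition, for footprints (left) and mRNA (right). Points are libraries and lines are group means. In footprints both zuo1Δ points lie below wild type without stress (7.825% and 7.823% against 8.466% and 8.621%) and above it under both stress labels. With library size alone the median log2 fold change between genotypes under heat was 0.17 for the 79 genes and 0.15 for all genes.

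Without stress, 20 of the 79 genes had lower footprints in zuo1Δ than in wild type and 1 had higher footprints (edgeR quasi-likelihood test over 5064 genes, Benjamini-Hochberg adjusted p under 0.05). Over all genes tested, 3.04% were lower and 1.78% higher. The median log2 fold change of the 79 was -0.38, while that of all genes was 0.03, and 65 of the 79 had a negative value. The 56 small-subunit protein genes gave 15 lower, 1 higher and a median of -0.40. Shares over all genes, here and below, are those of this test with all libraries. For edgeR counts at an unadjusted p under 0.05, the number over all genes tested is given with both directions together. No such share or number is given for counts from DESeq2, under other scalings or from fits that leave out libraries. The edgeR shares are not the background of those counts, which alone are not results about the members. Levels below are CPM, the count per 1e6 reads of a library scaled by the TMM factors of edgeR, and errors of log2 fold changes are standard errors.

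The stalk genes were lower in unstressed zuo1Δ for 5 of 7 members in edgeR. At an unadjusted p under 0.05 all 7 were lower, beside 1017 of 5064 genes in either direction. DESeq2 called all 7 lower. RPP0 (YLR340W, R64 chromosome XII, 805887 to 806825), the base of the stalk, had 3654 and 3769 CPM in zuo1Δ, against 6249 and 6583 CPM in wild type. Its log2 fold change was -0.79 ± 0.13 (adjusted p = 0.00654). RPP2B (YDR382W, chromosome IV, 1239492 to 1239824), one of the acidic proteins that hang from the base and contact elongation factors, had 590.6 and 519.3 CPM in zuo1Δ, against 1395 and 1116 CPM in wild type. Its change, -1.18 ± 0.20 (adjusted p = 0.00668), was the largest of the stalk. RPP1A, an acidic protein that pairs with Rpp2B, had 751 and 637.2 CPM in zuo1Δ, against 1510 and 1227 CPM in wild type (-0.98 ± 0.19, adjusted p = 0.0113). RPP2A fell by 0.55 and RPL12A, a copy of the protein beside the stalk base, by 0.60 on the log2 scale. RPP1B and RPL12B had -0.43 and -0.40 and did not pass (adjusted p = 0.0647 and 0.0983).

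RPL5, which carries the 5S ribosomal RNA into the subunit, also fell. It had 3364 and 3536 CPM in zuo1Δ, against 5913 and 6163 CPM in wild type (-0.81 ± 0.13, adjusted p = 0.00394). Its partner in that particle, Rpl11, had -0.44 for RPL11A and -0.53 for RPL11B, neither of which passed (adjusted p = 0.166 and 0.0984). Of the 7 genes of the catalytic core and the tRNA sites, 0 passed in edgeR, 3 were lower at an unadjusted p under 0.05, and DESeq2 called 1 lower. RPL3, at the catalytic centre, had 5871 and 5801 CPM in zuo1Δ, against 7630 and 7826 CPM in wild type (-0.41 ± 0.13, adjusted p = 0.0982). RPL10, which is inserted last, next to the catalytic centre, had 4417 and 4592 CPM in zuo1Δ, against 5377 and 5276 CPM in wild type (-0.24 ± 0.11, adjusted p = 0.267). The replicates of RPL3 and RPL10 did not overlap between the genotypes, yet the differences were within what the test allows. RPL28, near the catalytic centre, had -0.34, and RPL30, whose protein restrains the splicing of its own transcript, had -0.45. Neither passed (adjusted p = 0.157 and 0.151).

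At the rim of the tunnel exit, where Zuo1 docks, 2 of 14 genes were lower. They were the copies of the rim protein Rpl26, RPL26A at -0.72 ± 0.14 and RPL26B at -0.71 ± 0.16 (adjusted p = 0.0138 and 0.0262). RPL31A and RPL31B, whose protein is a contact of Zuo1 on the ribosome, had -0.40 ± 0.17 and -0.61 ± 0.19 and did not pass (adjusted p = 0.216 and 0.0964). RPL25, the docking site of the signal recognition particle and of other nascent chain factors, had -0.17, and RPL39, which lines the tunnel, had -0.11. With scaling by library size alone RPL25 and RPL39 turned to 0.07 and 0.13. RPL35A and RPL35B, neighbours of Rpl25 at the exit, were the members with the fewest footprints. RPL35A had 43.49 and 57.21 CPM in zuo1Δ, against 45.15 and 29.21 CPM in wild type, so the genotypes overlapped. RPL35B had 12.85 and 21.18 CPM in zuo1Δ, against 16.93 and 10.62 CPM in wild type, and it too overlapped. Its log2 fold change of 0.29 turned to -0.13 without zuo1Δ replicate 2 and to -0.05 without wild-type replicate 2.

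Outside these groups the largest falls were in copies of structural proteins of the subunit. RPL8A (YHL033C, chromosome VIII, 35255 to 36025) had 537.4 and 543.4 CPM in zuo1Δ, against 1247 and 1258 CPM in wild type (-1.21 ± 0.17, adjusted p = 0.00205). Its paralog RPL8B had 1817 and 1899 CPM in zuo1Δ, against 2596 and 2632 CPM in wild type, and did not pass (-0.49 ± 0.16, adjusted p = 0.0972). RPL14B (YHL001W, chromosome VIII, 104277 to 105091) had 114.4 and 112.5 CPM in zuo1Δ, against 240.6 and 237 CPM in wild type (-1.07 ± 0.14, adjusted p = 0.0013), and its paralog RPL14A also fell (-0.75 ± 0.16, adjusted p = 0.0168). The only member that rose was RPL15B (YMR121C, chromosome XIII, 509734 to 510348), the weakly expressed copy of its pair. It had 108.3 and 112.9 CPM in zuo1Δ, against 52.21 and 47.8 CPM in wild type (1.14 ± 0.18, adjusted p = 0.00395). The main copy, RPL15A, had 3836 and 3299 CPM in zuo1Δ, against 3147 and 2942 CPM in wild type, and did not pass (0.23 ± 0.17, adjusted p = 0.506).

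Of the 21 calls, those of RPL8A and RPL14B held when any 1 of the 4 unstressed libraries was left out. The number passing was then 5 without zuo1Δ replicate 1, 7 without zuo1Δ replicate 2, 8 without wild-type replicate 1 and 6 without wild-type replicate 2, with the median at -0.40 to -0.39. RPP0 missed the threshold without zuo1Δ replicate 1 or wild-type replicate 2 (adjusted p = 0.0771 and 0.0578), RPP1A and RPP2B without zuo1Δ replicate 2 (0.072 and 0.0513) or wild-type replicate 1 (0.087 and 0.0552), and RPL15B without wild-type replicate 2 (0.0659). With library size alone 7 members were lower and 2 higher, the median of the 79 was -0.14 and that of all genes was 0.27.

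**Figure D2:**
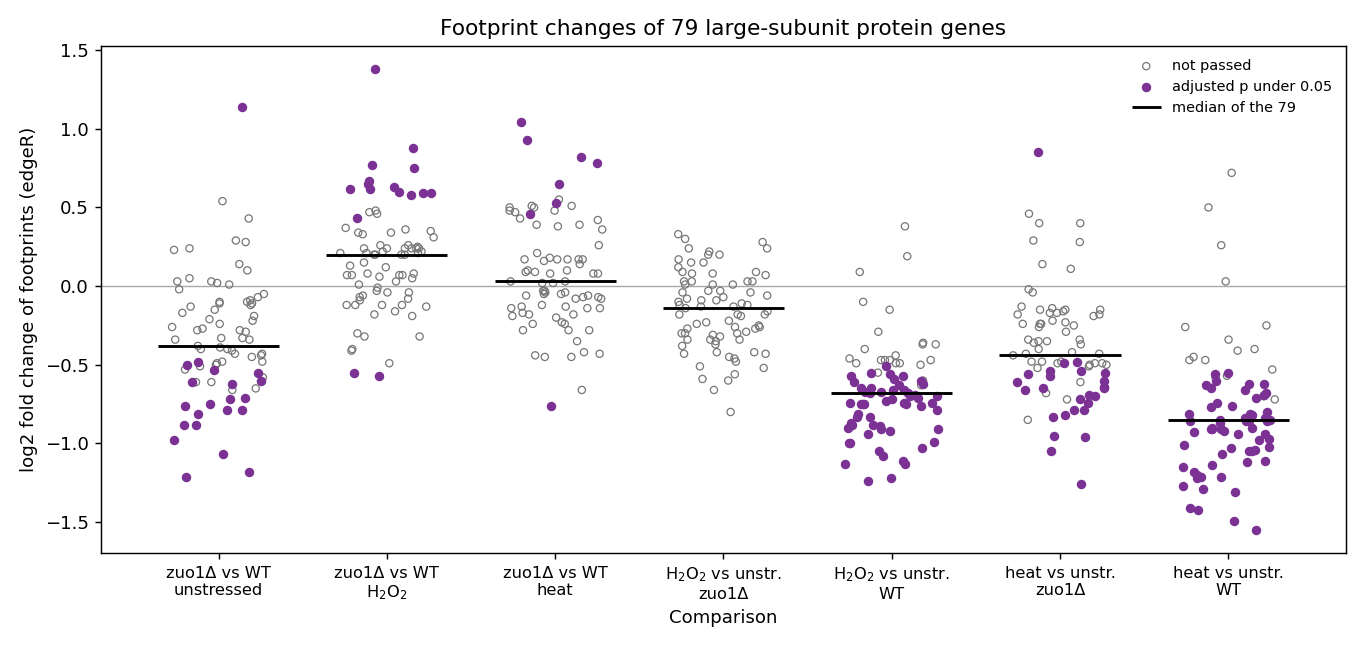
Log2 fold change of footprints (vertical axis, edgeR) for each of the 79 genes in 7 comparisons; filled points have an adjusted p under 0.05, open points do not, and the bar is the median of the 79. The points lie lowest after stress in wild type (medians -0.68 and -0.85), and the median of zuo1Δ against wild type is -0.38 without stress, 0.20 after H2O2 and 0.03 after heat.

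In wild type most of the genes had lower footprints after either stress. After H2O2, 56 of the 79 were lower than in unstressed cells and 0 were higher in edgeR, with a median log2 fold change of -0.68, beside 8.79% lower and 9.36% higher over all genes and a median of 0.05. After heat, 62 of the 79 were lower and 0 higher in edgeR, with a median of -0.85, beside 6.28% lower and 3.53% higher over all genes and a median of 0.07. At an unadjusted p under 0.05, 0 members were higher after H2O2 and 1 after heat, and DESeq2 called 0 higher in both. Over all 5064 genes, 1660 reached that p in edgeR after H2O2 and 1308 after heat, both directions together. The 2 comparisons share their unstressed libraries. The small-subunit genes gave 37 of 56 lower after H2O2 and 38 of 56 after heat.

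All 7 stalk genes were lower after H2O2, and all 7 after heat. RPP0 had 3290 and 3498 CPM after H2O2 and 2675 and 2588 CPM after heat, against 6249 and 6583 CPM unstressed (-0.92 ± 0.14 and -1.29 ± 0.14, adjusted p = 0.00216 and 0.000395). RPP1A had 632.6 and 619.2 CPM after H2O2 and 565.3 and 463.3 CPM after heat, against 1510 and 1227 CPM unstressed (-1.13 ± 0.19 and -1.41 ± 0.19). RPP2B had 624.3 and 565.7 CPM after H2O2 and 475 and 465.1 CPM after heat, against 1395 and 1116 CPM unstressed (-1.08 ± 0.20 and -1.42 ± 0.20). No stressed replicate of these genes reached an unstressed one. The other stalk genes, RPP1B, RPP2A, RPL12A and RPL12B, fell by 0.67 to 0.91 on the log2 scale after H2O2 and by 0.74 to 0.90 after heat.

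The largest falls outside the stalk were in different proteins for each stress. After H2O2 they were in RPL23A and RPL23B, whose protein lies at the face that meets the small subunit, and in RPL14A. RPL23A (YBL087C, chromosome II, 59822 to 60739) had 369.6 and 374.7 CPM after H2O2, against 864.3 and 896.9 CPM unstressed (-1.24 ± 0.12, adjusted p = 0.000382). RPL23B had 592.2 and 569.8 CPM after H2O2, against 1331 and 1372 CPM unstressed (-1.22 ± 0.12, adjusted p = 0.000382). The copies of Rpl23 thus fell by nearly the same factor, and after heat they had -1.01 ± 0.12 and -1.20 ± 0.12.

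After heat the largest falls were in RPL9A and in RPL1A, a copy of the protein of the mobile arm beside the site from which spent tRNA leaves. RPL9A (YGL147C, chromosome VII, 227754 to 228329) had 543.2 and 539.6 CPM after heat, against 1633 and 1547 CPM unstressed (-1.55 ± 0.20, adjusted p = 0.000759). Its paralog RPL9B had 331.7 and 367.8 CPM after heat, against 472.7 and 412.9 CPM unstressed, and did not pass (-0.34 ± 0.14, adjusted p = 0.14). RPL1A had 114.7 and 95.22 CPM after heat, against 234.9 and 351.9 CPM unstressed (-1.49 ± 0.21, adjusted p = 0.00126). RPL1B had 235 and 221.1 CPM after heat, against 268.8 and 333.3 CPM unstressed, and did not pass (-0.40 ± 0.18, adjusted p = 0.173). In both pairs the B copy stayed closer to its unstressed level than the A copy did.

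Of the 14 rim genes, 9 were lower after H2O2 and 11 after heat. RPL31A had -0.72 and -0.84 and RPL31B -0.90 and -0.81 after H2O2 and heat, all passing, and so did RPL39 at -0.75 and -0.91. RPL25 passed after heat (-0.65, adjusted p = 0.0463) and not after H2O2 (-0.44, adjusted p = 0.12). RPL35A and RPL35B did not pass after either stress, at 10.62 to 51.14 CPM over the wild-type libraries. Of the 5S particle, RPL5 had 2955 and 3132 CPM after H2O2 and 3037 and 3105 CPM after heat, against 5913 and 6163 CPM unstressed (-0.99 and -0.98, both passing). RPL11A passed after heat (-0.80) and not after H2O2 (-0.49, adjusted p = 0.0622), while RPL11B passed after H2O2 (-0.57) and not after heat (-0.25, adjusted p = 0.388), a value that became 0.01 with library size alone. Of the core genes, RPL3 had -0.89 and -1.12, RPL10 -0.75 and -0.94, RPL28 -0.66 and -0.60 and, outside the core, RPL30 -0.57 and -0.76 after H2O2 and heat, all passing.

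Of the 56 calls after H2O2, 21 held whichever of the 4 libraries was left out, among them RPP0, RPP1A, RPP1B, RPP2A, RPP2B, RPL3, RPL5, RPL10 and both copies of RPL14, RPL16 and RPL23. The number passing was 24 and 30 without H2O2 replicate 1 and 2, and 48 and 30 without unstressed replicate 1 and 2. Of the 62 calls after heat, 33 held, and the number passing was 36 and 37 without heat replicate 1 and 2, and 47 and 44 without unstressed replicate 1 and 2.

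In zuo1Δ, 0 of the 79 genes passed in the libraries labelled H2O2 against unstressed zuo1Δ in edgeR (median -0.14), where 0 of 5064 genes (0%) passed. At an unadjusted p under 0.05, 19 members were lower and 0 higher, beside 444 of 5064 genes in either direction. DESeq2 called 8 members. The 2 replicates stood apart: RPP0 had 2908 and 2512 CPM, against 3654 and 3769 CPM unstressed, and RPL17A had 1373 and 681.3 CPM, against 1270 and 975.8 CPM unstressed. Without the library labelled zuo1Δ H2O2 replicate 1 the median of the 79 was -0.30, beside 0.04 over all genes. The median of the 7 stalk genes was then -0.52, against -0.45 with that library.

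In the libraries labelled heat, 25 members were lower and 1 was higher than in unstressed zuo1Δ (median -0.44), beside 6.26% lower and 5.61% higher over all genes. RPP0 had 1725 and 1373 CPM after heat, against 3654 and 3769 CPM unstressed (-1.26 ± 0.14, adjusted p = 0.000543). RPL17A, a rim protein, had -1.05 ± 0.27, RPL9A -0.96 ± 0.20 and RPL22B, the minor copy of another rim protein, -0.95 ± 0.17. The gene that rose, RPL7B, is the minor copy of its pair, and it had 227.3 and 178.4 CPM after heat, against 105.2 and 120.2 CPM unstressed (0.85 ± 0.18, adjusted p = 0.0138). The number passing was 3 and 19 without heat replicate 1 and 2, and 4 and 12 without unstressed replicate 1 and 2, and the calls of RPP0, RPL2A and RPL2B held in all 4 fits. With library size alone 11 members were lower and 3 higher.

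Between the genotypes under stress, more members passed as higher than as lower in zuo1Δ. Under the label H2O2, 14 members were higher and 2 lower in zuo1Δ than in wild type (median 0.20), beside 9.34% higher and 9.68% lower over all genes. RPL15A (YLR029C, chromosome XII, 201976 to 202590) led with 4448 and 3474 CPM in zuo1Δ, against 1566 and 1478 CPM in wild type (1.38 ± 0.17, adjusted p = 0.000893). RPL37B had 0.88 ± 0.17, RPL22B 0.77 ± 0.17 and RPL38 0.75 ± 0.16. Of the 14 rim genes 4 were higher, RPL22B, RPL39 (0.58), RPL19A (0.62) and RPL19B (0.60), and the others did not pass. The median of the 14 was 0.25, and 0.06 without the library labelled zuo1Δ H2O2 replicate 1. The members that were lower were RPL18B (-0.57 ± 0.17) and RPL8A (-0.55 ± 0.17). The call of RPL18B was lost whichever of the 4 libraries was left out (adjusted p = 0.0754 to 0.195). That of RPL8A was lost without either wild-type replicate (adjusted p = 0.129 and 0.176) and without the library labelled zuo1Δ H2O2 replicate 1 (-0.35, adjusted p = 0.243). Of the 7 stalk genes 0 passed in edgeR or DESeq2. An unadjusted p under 0.05 was reached by 3 of the 7, beside 1740 of 5064 genes in either direction. The log2 values ran from -0.41 to -0.03 over the 7, with a median of -0.19. Without the library labelled zuo1Δ H2O2 replicate 1, 1 of the 7 was lower, RPP1A, and the median was -0.31.

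The number passing was 12 without the library labelled zuo1Δ H2O2 replicate 1 and 22 without its replicate 2, and 1 and 2 without wild-type replicate 1 and 2. The call of RPL15A held in all 4 fits. Under library size alone, 22 members were higher and 0 lower. Without the 3 libraries whose markers went against their labels, 10 members were higher and 2 lower, with a median of -0.03, and 10 of the 16 calls were kept. Neither RPL18B nor RPL8A was among the 2 that were then lower, and RPP1A was (-0.66, adjusted p = 0.0446). RPL15A (1.22), RPL37B (0.71), RPL22B (0.86), RPL38 (0.60), RPL19A (0.55) and RPL19B (0.59) kept their calls, and RPL39 did not (0.47, adjusted p = 0.0751).

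Under the label heat, 7 members were higher and 1 lower in zuo1Δ than in wild type (median 0.03), beside 2.86% higher and 3.61% lower over all genes. The one that was lower was RPP0, with 1725 and 1373 CPM in zuo1Δ, against 2675 and 2588 CPM in wild type (-0.76 ± 0.14, adjusted p = 0.00713). RPL7B was higher (1.04 ± 0.18), as were RPL15B (0.93 ± 0.17), RPL38 (0.82 ± 0.16) and RPL15A (0.78 ± 0.17), and RPL9B, RPL19A and RPL10 had 0.65, 0.53 and 0.46. The number passing was 9 and 2 without zuo1Δ heat replicate 1 and 2, and 1 and 3 without wild-type replicate 1 and 2, and 0 of the 8 calls held in all 4 fits. Under library size alone, 16 members were higher and 1 lower.

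The change with stress was less negative in zuo1Δ than in wild type for 71 of the 79 genes, for H2O2 and for heat alike, with a median difference of 0.57 for H2O2 and 0.41 for heat. Over all genes the medians were -0.04 and -0.04. By the interaction test of edgeR 7 members passed for H2O2, all positive, beside 0.889% positive and 0.474% negative over all genes. They were RPL1A (1.36 ± 0.29), RPL15A (1.15 ± 0.24), RPL14A (1.00 ± 0.22), RPL14B (0.95 ± 0.19), RPL23B (0.84 ± 0.17), RPL10 (0.83 ± 0.16) and RPL23A (0.82 ± 0.17), with adjusted p-values of 0.0373 to 0.0499. For heat 4 members passed, all positive, beside 0.612% positive and 0.415% negative. They were RPL7B (1.52 ± 0.26), RPL14B (1.03 ± 0.20), RPL23A (0.87 ± 0.17) and RPL23B (0.85 ± 0.17), with adjusted p-values of 0.0241 to 0.0353.

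These counts moved when 1 library was left out, a fit that leaves 1 library in its group. Without the library labelled zuo1Δ H2O2 replicate 1 the calls of RPL10 (0.85) and RPL23B (0.89) were kept, while RPL1A had 1.26, RPL15A 1.03, RPL14B 0.97, RPL14A 0.92 and RPL23A 0.83, with adjusted p-values of 0.0638 to 0.0862. For H2O2 the count was 2 without the library labelled zuo1Δ H2O2 replicate 1 and 43 without its replicate 2, 0 and 6 without unstressed zuo1Δ replicate 1 and 2, 0 and 0 without wild-type H2O2 replicate 1 and 2, and 4 and 0 without unstressed wild-type replicate 1 and 2. For heat it was 4 and 2 without zuo1Δ heat replicate 1 and 2, 0 and 1 without unstressed zuo1Δ replicate 1 and 2, 0 and 0 without wild-type heat replicate 1 and 2, and 1 and 0 without unstressed wild-type replicate 1 and 2. The medians of the 79 stayed between 0.42 and 0.76 for H2O2 and between 0.35 and 0.55 for heat.

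Of 15 regulators of ribosomal protein genes, 1 was lower in unstressed zuo1Δ footprints, IFH1, the coactivator that is released from these promoters when growth stops (-1.54 ± 0.27, adjusted p = 0.00809). The median of the 15 was 0.04, and 3.04% of all genes were lower. Under the label heat 3 of the 15 were lower in zuo1Δ and 1 was higher (median -0.17), beside 3.61% lower and 2.86% higher over all genes. The 3 lower ones were IFH1 (-1.23 ± 0.26), RAP1 (-0.76 ± 0.18), which binds these promoters, and HMO1 (-0.74 ± 0.16), a chromatin protein at them. The calls of IFH1 and HMO1 under heat were lost whichever of the 4 libraries was left out (adjusted p = 0.069 to 0.104 and 0.0699 to 0.15). That of RAP1 was lost without wild-type heat replicate 1 or 2 or zuo1Δ heat replicate 2 (adjusted p = 0.0836, 0.174 and 0.129). The call of IFH1 without stress was lost without zuo1Δ replicate 1 or wild-type replicate 2 (adjusted p = 0.0771 and 0.0723). Within zuo1Δ, 2 of the 15 were higher and 2 lower after heat, beside 5.61% higher and 6.26% lower over all genes. Within wild type 1 was higher and 1 lower, beside 3.53% higher and 6.28% lower. HMO1 was lower after heat, at -1.07 ± 0.16 in zuo1Δ and -0.83 ± 0.16 in wild type (adjusted p = 0.00334 and 0.00712). DOT6 was higher in zuo1Δ (0.99 ± 0.16, adjusted p = 0.00406). IFH1 was higher after heat, by 1.28 ± 0.27 in zuo1Δ (adjusted p = 0.0132) and by 0.97 ± 0.26 in wild type (adjusted p = 0.0384). These calls were lost without unstressed replicate 1 or heat replicate 1 in zuo1Δ (adjusted p = 0.0951 and 0.0643) and without any 1 of the 4 libraries in wild type (0.0998 to 0.212).

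Under the label H2O2, 7 of 8 dedicated chaperones and import factors and 10 of 20 late maturation factors of the subunit were higher in zuo1Δ than in wild type, with medians of 0.84 and 0.82, beside 9.34% higher and 9.68% lower over all genes. BCP1, the chaperone of Rpl23, had 1.03 ± 0.16, SYO1, which carries Rpl5 and Rpl11 to the nucleus, had 0.94 ± 0.29, and LOC1 had 1.26 ± 0.18. Among the maturation factors RLP24 had 1.30 ± 0.24, NMD3, the export adaptor of the subunit, 1.25 ± 0.26, and YVH1, which helps to build the stalk, 1.14 ± 0.23. Without the libraries whose markers went against their labels 4 of 8 and 5 of 20 passed, with medians of 0.95 and 0.85. The call of SYO1 was lost whichever of the 4 libraries was left out (adjusted p = 0.0607 to 0.261). Those of RLP24, NMD3 and YVH1 were lost without wild-type replicate 1 (adjusted p = 0.061, 0.0862 and 0.0801), and that of NMD3 also without wild-type replicate 2 (adjusted p = 0.0571). In wild type after H2O2, 3 of the 8 chaperones and import factors were lower (median -0.46), beside 8.79% lower over all genes, with KAP123, an importin of ribosomal proteins, at -1.16 ± 0.20 and BCP1 at -0.97 ± 0.17.

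A and B copies of a pair contributed unequally to footprints. The A copy's share of the footprints of its pair, averaged over the 6 libraries of a genotype, ran from 21.8% for RPL36 to 96.3% for RPL15 in wild type, and 20 of the 34 A copies had more than the B copy. This share is taken within a library and does not depend on scaling. It was compared between genotypes by an exact two-sided permutation test, with genotype labels exchanged within each condition (216 arrangements, smallest possible p = 0.00926) and p-values adjusted over the 60 A and B pairs of the whole table. It differed for 9 of the 34 pairs, each at that smallest p and an adjusted p of 0.0427, beside 13 of 60 pairs (21.7%) in the table. The smallest p arises when the zuo1Δ and wild-type replicates do not overlap, in the same direction, in all 3 conditions. That held for these 9 pairs and is thus no further support. The calls lie near the threshold. All pairs at the smallest p share 1 adjusted p, which is set by how many of the 60 pairs reach it. They thus pass or fail largely together, and the loss of calls below is not a result about single pairs. With each footprint library left out in turn, chosen after seeing the data, 8 pairs passed without unstressed wild-type replicate 1, 7 without zuo1Δ heat replicate 2 and 9 without zuo1Δ H2O2 replicate 1. Leaving out any other footprint library gave 0 (smallest adjusted p = 0.0505 to 0.0694), and 0 of the 9 calls held in all 12 runs.

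The largest difference was in RPL9, where the A share was 60.3% in zuo1Δ, against 71.0% in wild type, a difference of -10.7 points with a replicate SD of 3.31 points. Without the library labelled zuo1Δ H2O2 replicate 1 it was -12.4 points. In zuo1Δ the RPL9A share was 69.5% and 68.5% unstressed, 68.7% and 58.2% under the label H2O2 and 47.0% and 49.9% under the label heat. In wild type it was 77.6% and 78.9%, 73.2% and 74.9%, and 62.1% and 59.5% in the same order. RPL9A thus held less of the pair in zuo1Δ in all 3 conditions, and least after heat in both genotypes.

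The RPL8A share was 29.7% in zuo1Δ, against 39.5% in wild type (-9.85 points, replicate SD 4.21). In zuo1Δ it was 22.8% and 22.2% unstressed, 22.9% and 35.6% under the label H2O2 and 34.8% and 39.7% under the label heat, and in wild type it was 32.5% and 32.3%, 41.5% and 44.0%, and 41.1% and 45.7%. The share was higher in the stressed libraries than in the unstressed ones in both genotypes, except in the library labelled zuo1Δ H2O2 replicate 1, which lay within 1 point of the unstressed zuo1Δ libraries. Without that library the difference was -7.74 points. The stalk pair RPP1 had an A share of 40.7% in zuo1Δ, against 46.9% in wild type (-6.19 points), and RPL4, which lines the tunnel, had 71.7% in zuo1Δ, against 65.9% in wild type (5.86 points). Without that library RPP1 had -7.43 points and RPL4 5.78.

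The other pairs that passed were RPL13, RPL14, RPL22, RPL37 and RPL42, with differences of -4.32 to 4.18 points. The A share of RPL1 (49.2% in zuo1Δ, against 41.3% in wild type) and of RPL26 (29.5% in zuo1Δ, against 34.3% in wild type) did not pass (adjusted p = 0.0966 and 0.0833). The pairs with the highest and the lowest A share, RPL15 and RPL36, had 96.2% and 22.1% in zuo1Δ, against 96.3% and 21.8% in wild type. Without the library labelled zuo1Δ H2O2 replicate 1 the same 9 pairs passed (adjusted p = 0.0463), and RPL1 and RPL26 again did not (adjusted p = 0.162 and 0.0877).

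**Figure D3:**
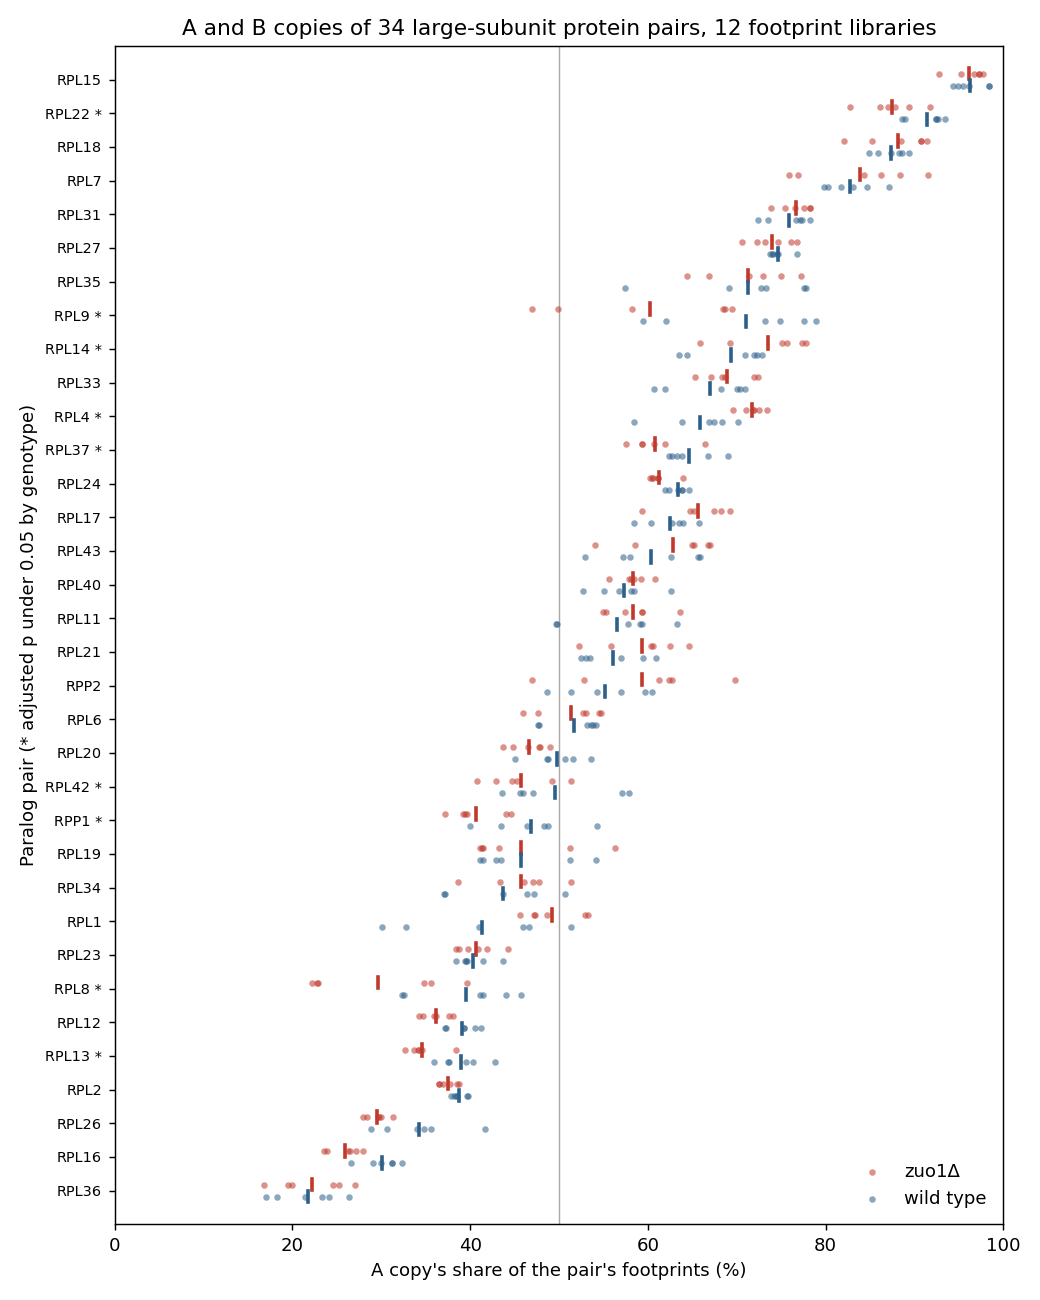
The A copy's share of its pair's footprints (horizontal axis, percent) for the 34 pairs, with 6 zuo1Δ libraries above 6 wild-type libraries in each row, means as upright bars and an asterisk where the genotypes differed at an adjusted p under 0.05. The red and blue bars of RPL9 (60.3% and 71.0%) and RPL8 (29.7% and 39.5%) stand farthest apart, and the rows run from RPL15 at the top to RPL36 at the bottom.

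In mRNA the shares were often far from those in footprints. The RPL43A share averaged 1.48% of the mRNA counts of its pair in zuo1Δ and 0.957% in wild type, but 62.8% of the footprints in zuo1Δ and 60.4% in wild type. RPL36A had 78.9% of the mRNA counts of its pair in zuo1Δ and 74.4% in wild type, but 22.1% of the footprints in zuo1Δ and 21.8% in wild type. RPL22A had 32.3% of the mRNA counts in zuo1Δ and 57.3% in wild type, but 87.5% of the footprints in zuo1Δ and 91.4% in wild type. Footprint reads and mRNA reads differ in length, and the part of reads shared by both copies in these gaps was not tested.

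Between genotypes 9 of the 34 pairs passed in mRNA, beside 25 of 60 (41.7%) in the table. This test includes the mRNA libraries labelled zuo1Δ H2O2 replicate 2 and zuo1Δ heat replicate 1, whose markers went against their labels. Without them, an alternative chosen after seeing the data, 0 of 60 pairs passed by the exact permutation test (54 arrangements, smallest adjusted p = 0.106), and 8 of the 34 had an unadjusted p under 0.05. With 54 arrangements the test has little room to reach the threshold after adjustment over 60 pairs. The loss of these calls is thus not a result about the pairs. With all libraries RPL4, RPL14 and RPL22 passed in both assays. For RPL22 the A share was lower in zuo1Δ in both (-3.91 points in footprints, -25.0 in mRNA) and for RPL4 higher in both (5.86 and 9.5), but for RPL14 it was higher in footprints (4.18) and lower in mRNA (-9.07). The difference of RPL9 in mRNA was -4.36 points (p = 0.481, exact permutation test) and that of RPL8 was 2.2 points (p = 0.602, exact permutation test), and RPP1 had 16.6 points (adjusted p = 0.0575). Without those libraries the differences in mRNA were -25.6 points for RPL22, 10.3 for RPL4, -10.3 for RPL14, -3.07 for RPL9 and 3.11 for RPL8, and RPP1 again did not pass (adjusted p = 0.153).

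**Figure D4:**
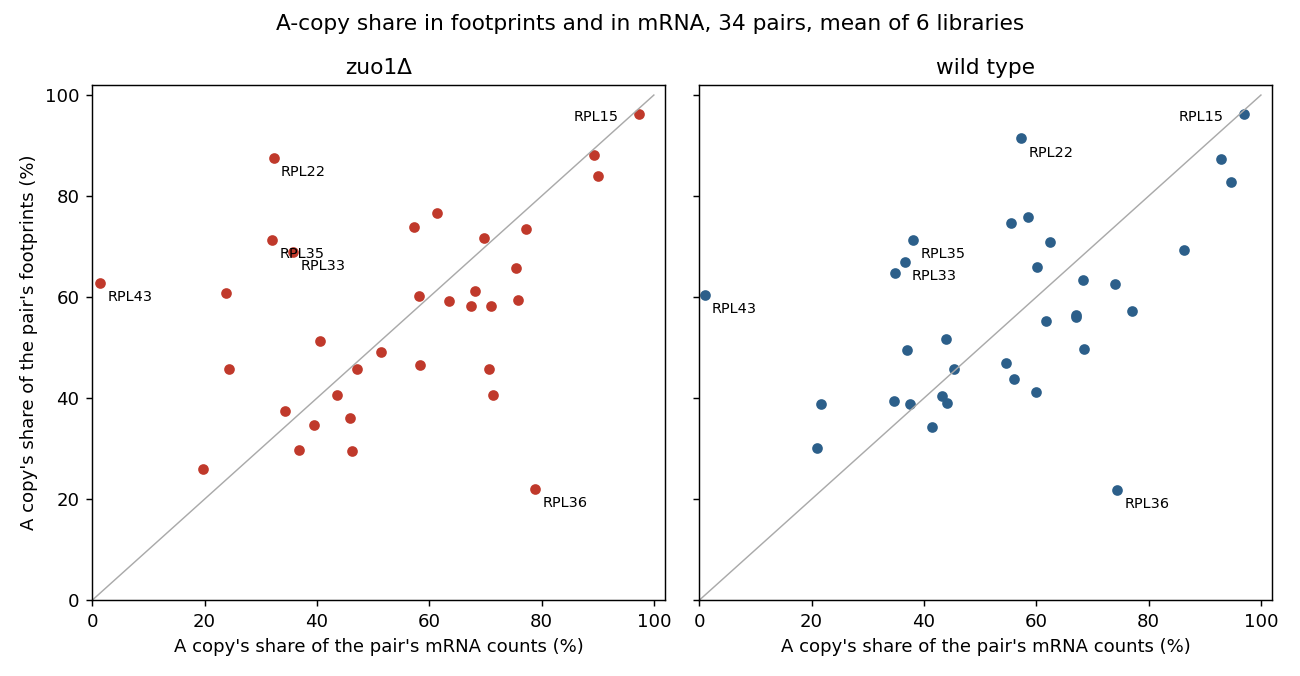
The A copy's share of its pair in footprints (vertical axis, percent) against its share in mRNA (horizontal axis, percent), each the mean of 6 libraries, for 34 pairs in zuo1Δ (left) and wild type (right); the line marks equal shares. RPL43 (footprints 62.8% and mRNA 1.48% in zuo1Δ) and RPL36 (22.1% and 78.9%) lie farthest from the line in both panels.

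Levels can be compared between proteins only per coding length, which could be had for 16 proteins, 7 made by 1 gene and 9 by a pair whose copies were summed. The proteins of a ribosome are needed in equal numbers, apart from the acidic stalk proteins, of which it holds several copies. In unstressed zuo1Δ the single-gene proteins ran from 3859.1 to 6763.5 footprint CPM per kilobase, and in unstressed wild type from 4578.1 to 7997.7. The summed pairs ran from 510.9 to 5980.7 in zuo1Δ and from 692.1 to 7885.5 in wild type.

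The highest in wild type were RPL10 at 7997.7 ± 107.2, the pair RPP2 at 7885.5 ± 570.4, RPP0 at 6832.8 ± 251.5 and RPL5 at 6753.9 ± 197.7 CPM per kilobase (mean ± SD, n = 2). RPL10 and RPP2 overlapped in their replicates, as did RPP0, RPL5 and RPL3, so their order is not set. The same proteins had 6763.5 ± 185.8, 4469.0 ± 314.4, 3952.6 ± 86.6 and 3859.1 ± 136.0 CPM per kilobase in unstressed zuo1Δ, where RPL15, at 5980.7 ± 612.1, stood second. The lowest were RPL9, RPL11, RPL1 and RPL4, at 2540.2 ± 149.6, 965.0 ± 71.9, 510.9 ± 73.8 and 728.4 ± 54.7 in zuo1Δ, against 3529.2 ± 179.0, 1341.6 ± 80.4, 908.9 ± 196.2 and 692.1 ± 21.4 in wild type. The part of reads that match both copies in the low values of RPL1, RPL4 and RPL11 was not tested.

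**Figure D5:**
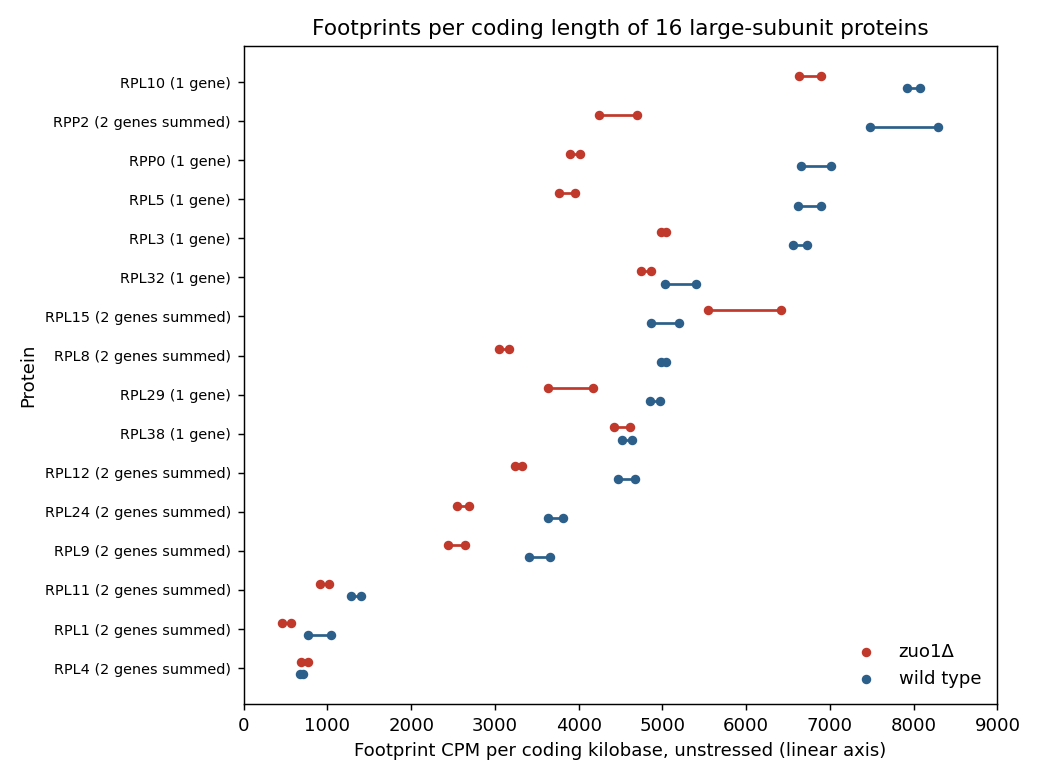
Footprint CPM per coding kilobase without stress (horizontal axis, linear) for 16 proteins, paralogs summed, with the 2 zuo1Δ replicates drawn above the 2 wild-type replicates and joined by a line. RPL10 lies highest (7997.7 on average in wild type) and RPL1 and RPL4 lowest, and RPP0, RPP2 and RPL5 show wide gaps between the genotypes.

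In mRNA the members took less of the library in zuo1Δ and after stress in wild type. Without stress they took 5.835% and 5.454% of the counts in zuo1Δ, against 7.791% and 7.637% in wild type. Under the label H2O2 they took 4.036% and 3.827% in zuo1Δ, against 4.662% and 3.668% in wild type, and under the label heat 4.35% and 3.84% in zuo1Δ, against 4.622% and 4.383% in wild type. The genotypes did not overlap without stress or under the label heat and overlapped under the label H2O2. Fold changes of stressed zuo1Δ mRNA were not tested here, because 1 of the 2 libraries of each stress went against its label.

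Fold changes in mRNA depended on the scaling. The TMM factors ran from 0.390 to 1.945, and the share of counts held by the 50 most abundant genes lay at 19% to 33.04% in zuo1Δ, against 27.2% to 61.66% in wild type. With TMM the median of the 79 for unstressed zuo1Δ against wild type was -1.68 and that of all genes -0.02. With library size alone these medians were -0.16 and 1.50. A change of scaling shifts all genes by nearly the same amount. That the members lay below all genes under both is thus not a test of the scaling. In edgeR 0 of the 79 passed, beside 0.178% lower and 0.0986% higher over all genes. At an unadjusted p under 0.05, 64 were lower and 1 higher, beside 1217 of 5070 genes in either direction. DESeq2 called 56 lower and 1 higher, and with library size alone 6 were lower and 2 higher. For the counts from DESeq2 and with library size alone, here and in the mRNA and efficiency results below, no share over all genes is given. The edgeR shares are not their background. Without zuo1Δ unstressed replicate 1 the count was 25, all lower, and without any other of the 4 libraries it was 0.

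RPL3 had 2317 and 2608 mRNA CPM in unstressed zuo1Δ, against 12860 and 16290 CPM in wild type (-2.57 ± 0.62, adjusted p = 0.0622). RPP0 had 5727 and 1687 CPM in zuo1Δ, against 17810 and 8868 CPM in wild type (-1.85 ± 0.70, adjusted p = 0.14). RPL15B had the only positive value, with 28.19 and 26.54 CPM in zuo1Δ, against 13.57 and 7.258 CPM in wild type (1.39 ± 0.37, adjusted p = 0.0678).

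After H2O2 in wild type 23 members were lower in mRNA and 0 higher in edgeR (median -1.94), beside 1.22% lower and 1.44% higher over all genes. At an unadjusted p under 0.05, 77 were lower and 0 higher, beside 1153 of 5070 genes in either direction. DESeq2 called 71 lower and 0 higher. RPL39 had 0.5896 and 0.5885 CPM after H2O2, against 5.539 and 34.97 CPM unstressed (-5.10 ± 0.89, adjusted p = 0.0214). RPL29, a small protein that joins late, had 38.15 and 14.75 CPM after H2O2, against 225.9 and 446.4 CPM unstressed (-3.67 ± 0.72, adjusted p = 0.0326), and RPL38 and RPL36A had -2.86 ± 0.58 and -2.57 ± 0.58. The unstressed replicates of RPL39 lay far apart, but above both H2O2 replicates. The count was 15 without unstressed replicate 1 and 0 without unstressed replicate 2 or either H2O2 replicate, and 1 without the libraries whose markers went against their labels. With library size alone the median was -0.81, that of all genes 1.18, and 4 members were lower and 1 higher.

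After heat in wild type 3 members were lower and 1 higher in mRNA (median -1.47), beside 0.296% lower and 0.394% higher over all genes. At an unadjusted p under 0.05, 50 were lower and 1 higher, beside 1297 of 5070 genes in either direction. DESeq2 called 44 lower and 1 higher. RPL20A had 565.4 and 340.6 CPM after heat, against 1869 and 3539 CPM unstressed (-2.58 ± 0.53), and RPL12A and RPL12B had -2.24 ± 0.39 and -1.98 ± 0.41. RPL15B had 46.87 and 28.41 CPM after heat, against 13.57 and 7.258 CPM unstressed (1.86 ± 0.38, adjusted p = 0.0461). The count was 33 without unstressed replicate 1 and 0 without unstressed replicate 2 or either heat replicate, 0 without the libraries whose markers went against their labels and 1 with RLE factors.

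A change in translational efficiency, fitted as the interaction of assay with group over the 24 libraries together, passed for 0 of the 79 members in unstressed zuo1Δ against wild type and for 0 after H2O2 in wild type in edgeR. Over all 5070 genes 0.0394% were lower and 0% higher between genotypes, and 0% passed in either direction after H2O2. At an unadjusted p under 0.05, 38 members were higher between genotypes and 36 after H2O2, with 0 lower in both. Over all 5070 genes, 902 and 499 reached that p in either direction. DESeq2 called 14 and 6 members higher. Without the mRNA library of unstressed zuo1Δ replicate 1 the count between genotypes was 14, and without the mRNA library of unstressed wild-type replicate 1 that after H2O2 was 1, all higher. The medians of the 79 were 1.06 and 1.08 with TMM, against -0.07 and 0.08 over all genes, and -0.02 and 0.28 with library size alone, against -1.16 and -0.82 over all genes.

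The ratio of footprints to mRNA also differed widely among members. In log2 units it ran from -2.07 to 7.18 over the 68 duplicated genes and from 0.00 to 7.05 over the 11 single genes in unstressed zuo1Δ, with medians of 0.99 and 2.06. In unstressed wild type it ran from -4.09 to 6.52 over the duplicated genes and from -1.25 to 5.82 over the single genes, with medians of -0.42 and 0.74. RPL43A, RPL39, RPL36B and RPL22A were highest, at 7.18, 7.05, 5.73 and 6.51 in zuo1Δ, against 6.52, 5.82, 4.40 and 4.40 in wild type. RPL4B, RPL4A, RPL1A and RPL2B were lowest in wild type, at -1.64, -1.16, -2.07 and -0.26 in zuo1Δ, against -4.09, -3.65, -3.61 and -3.16. These ratios carry the uncertainty of shared reads for each duplicated gene and of the mRNA scaling for the genotype difference, while RPL39, a single gene, has no B copy with which to share reads.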

How the data were processed

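Per the labels, poly(A) mRNA and ribosome footprints of zuo1Δ and wild-type yeast were sequenced in 2 replicates of 12 groups, 24 libraries in all. The values are raw read counts per gene as deposited by the authors. Per the submitters' processing notes, the tools were cutadapt, Bowtie2, HISAT2 and SAMtools, with R64 as the build. The sources used here name no counting tool, strand setting or treatment of reads that match several genes. Symbols and R64 positions came from a reference gene table that held 5198 of the 5211 IDs, and 3 lines that name no gene were left out. Tests used the 5070 genes with reads in each genotype, leaving out 54 that zuo1Δ and 87 that wild type listed at 0 in every library. The labels call the replicates biological for mRNA and give no batch or clone, so for footprints p-values measure the spread between these samples, which may be partly technical. Reads carry no molecular identifiers in the sources used here.

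Counts were tested in R 4.3.3 with edgeR 4.0.16 (quasi-likelihood, TMM factors, filterByExpr with minimum count 10 and minimum total 15, Benjamini-Hochberg over all genes tested, threshold 0.05), with all 12 libraries of an assay in 1 fit and all 24 for efficiency. Standard errors were obtained by dividing the size of each log2 fold change by the root of its F. DESeq2 1.42.0, RLE factors, library size alone, TMM factors without ribosomal protein genes, no filter, a replicate block, leaving out each library and leaving out the 3 doubted libraries were tried. On simulated counts for the unstressed genotype comparison of footprints (5062 genes) the test recovered 59 of 100 genes changed 2-fold and 93 of 100 changed 4-fold. For mRNA after H2O2 in wild type (5070 genes) it recovered 14 and 87. It also called 8 unchanged genes for footprints and 9 for mRNA. The counts were drawn with the trended spread alone, without the added spread of single genes, so these numbers need not hold for the members.

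The members, gene lists and tests were chosen with earlier results of these data known. For each comparison the text names up to 4 members that passed with the largest fall and 4 with the largest rise, 20 members of the stalk, exit, core and 5S particle whether or not they passed, the 6 pairs with the largest genotype difference in A share, the pairs with the highest and lowest share, the 4 highest and lowest proteins per coding length, and up to 3 genes of each other list. Pairs with the most and fewest shared read-length words were part of that rule, but no sequences were at hand and the step was left out, as were sequences of members. Paralogs beside a named copy (RPL14A, RPL8B, RPL9B, RPL1B, RPL15A) and other members given with values outside that rule were named after their values were seen. Coding length is the genomic span of genes without an intron in their coding sequence. RPL7A and RPL7B overlap small nucleolar RNA genes in their introns, which are not among the counted genes.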

Additional observations from a re-analysis of the deposited data

Results flagged for a closer look

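The change of footprints with stress differed between zuo1Δ and wild type, by the interaction test of edgeR at an adjusted p under 0.05, for 7 members with H2O2 and 4 with heat. All values are log2 differences, the change with stress in zuo1Δ minus that in wild type. For H2O2 they were 1.36 for RPL1A, 1.15 for RPL15A, 1.00 for RPL14A, 0.95 for RPL14B, 0.84 for RPL23B, 0.83 for RPL10 and 0.82 for RPL23A. For heat they were 1.52 for RPL7B, 1.03 for RPL14B, 0.87 for RPL23A and 0.85 for RPL23B. The H2O2 values rest in part on the library labelled zuo1Δ H2O2 replicate 1, whose oxidative stress genes stood at the unstressed level, and 2 of the 7 were kept without it. The part of that library in the values was not tested further. In the libraries labelled zuo1Δ heat the 16 heat shock genes stood no higher than in unstressed zuo1Δ, and the part of this in the 4 heat values was not tested.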

How the results depend on the processing

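Wild-type falls in footprints after H2O2 and heat stayed within 1.5 times of 56 and 62 members under every scaling, filter and tool tried and with the block. Elsewhere counts of members passing moved as follows, and the cause was not tested. RLE factors gave 9 for the heat interaction, and 1 each for mRNA between genotypes and after heat, and TMM factors without ribosomal protein genes gave 9 for the heat interaction. Library size alone gave 9 between unstressed genotypes, 17 between genotypes under heat, 14 for heat in zuo1Δ, 1 for each interaction, 8 and 5 for mRNA between genotypes and after H2O2, and 1 for efficiency between genotypes. DESeq2 gave 32 between unstressed genotypes, 8 for H2O2 in zuo1Δ, 26 and 18 for the H2O2 and heat interactions, 57, 71 and 45 for mRNA between genotypes, after H2O2 and after heat, and 14 and 6 for efficiency between genotypes and after H2O2.

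Without the 3 doubted libraries the counts were 35 and 14 between genotypes unstressed and under heat, 9 and 42 for H2O2 and heat in zuo1Δ, 2 and 16 for the interactions, and 1 and 0 for mRNA after H2O2 and heat. Replicate numbers are not said to pair samples. A replicate block gave 12 and 9 for the interactions, 45, 62 and 33 for mRNA between genotypes, after H2O2 and after heat, and 1 for efficiency between genotypes, and moved no other count by over 1.5 times.

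Leaving out 1 library in turn gave 5 to 8 members in footprints between unstressed genotypes, 1 to 22 under H2O2 and 1 to 9 under heat. It gave 24 to 48 after H2O2 and 36 to 47 after heat in wild type, 0 to 9 and 3 to 19 in zuo1Δ, and 0 to 43 and 0 to 4 for the interactions. In mRNA it gave 0 to 25 between genotypes, 0 to 15 after H2O2 and 0 to 33 after heat, and for efficiency 0 to 14 and 0 to 1. For pairs in footprints it gave 0 to 9 of 34, and without the 2 doubted mRNA libraries 0 passed in mRNA, both tried after seeing the data. For fold changes only libraries of the groups compared were left out in these runs, which leaves 1 library in a group. The counts without the doubted footprint library, which shares the fit with every other footprint library, are given above. Some of them lie above these ranges. The pair tests had fewer arrangements in these runs, so a change in their counts is not a result about single pairs. Leaving out a whole replicate number leaves 1 library against 1 in each condition, which cannot reach the threshold.

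Some values changed sign. With library size alone RPL25 and RPL39 between unstressed genotypes became 0.07 and 0.13, and RPL11B after heat 0.01. Leaving out 1 library put RPL35B between unstressed genotypes at -0.13 to 0.63 (-0.05 without unstressed wild-type replicate 2) and after H2O2 at -0.27 to 0.41 (-0.05 without H2O2 replicate 1), and RPL35A at -0.16 to 0.49 after H2O2 and -0.08 to 0.56 after heat, the lowest values being without unstressed replicate 2, or zuo1Δ replicate 2 between genotypes. In mRNA in place of footprints the genotype differences in A share became 2.2 points for RPL8, -8.33 for RPL1, 16.6 for RPP1 and 4.79 for RPL26. Depth limits RPL35A and RPL35B in footprints and RPL39 and RPL43A in mRNA most.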
